A study of Mus musculus with 5 samples.

Results

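The genes described here act in the metabolism of vitamin A and retinoic acid or in the binding of retinoids, and were measured in back skin of *Clock* mutants and of wild-type (WT) littermates. The 9 genes are *Aldh1a1*, *Aldh1a2*, *Aldh1a3*, *Rbp4*, *Crabp1*, *Crabp2*, *Rdh10*, *Dhrs3* and *Dhrs9*. They were chosen by name, on the lower *Aldh1a1* signal in these same arrays and on what retinoids are known to do in skin, so their values between genotypes are given as a description and carry no test. Of the 9 genes, 8 had at least 1 probe set that the array annotation gives to that gene alone. These 8 genes had 11 of the 45037 non-control probe sets on the array, and 10 of the 11 were bright enough to enter the array-wide comparison of 27022 probe sets. *Dhrs9*, which encodes a retinol dehydrogenase, had none of its own and was not analysed here.

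The skin came from 5 mice at postnatal day 23, 2 *Clock* mutant and 3 WT, each hybridised to its own array. *Clock* encodes the DNA-binding partner of BMAL1 in the circadian clock. The mutant allele is a germline point mutation that alters splicing, so every cell of the mutant skin carried it, and both groups were on a C57BL/6J background. The paper calls its *Clock* mutant and WT skin of this age telogen, when follicles rest. In its separate wild-type time course it classes day 23 as early anagen, the start of growth. The comparison asks what differed in mutant skin at that age. Hair shaft and root sheath genes, given below, stood apart in *Clock* mutant replicate 1. Whether the 5 mice were at an equal stage of the hair cycle was not tested. The paper reports that *Clock* mutants entered the first synchronized anagen late, though less so than *Bmal1* mutants. The authors noted a slightly more advanced hair cycle in males of their *Bmal1* litters. All mice were female except *Clock* mutant replicate 1, a male. The difference between that mouse and WT therefore cannot be told apart from a difference between sexes, and values from females alone are given where leaving it out turned the sign of a named retinoid pathway gene's difference or moved it by over 1.5 times. The time of day at collection is not given in the sources used here for these 5 mice.

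Retinol reaches cells on the plasma carrier RBP4 and is oxidised to retinal by dehydrogenases such as RDH10. DHRS3 runs that step backwards, and the ALDH1A enzymes oxidise retinal irreversibly to retinoic acid. CRABP1 and CRABP2 bind retinoic acid in the cytoplasm, and CRABP2 can pass it to the nuclear receptors of the RAR family. In skin, retinoids act on the growth and differentiation of keratinocytes, on sebaceous glands and on hair follicle cycling.

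*Aldh1a1* has a close copy on the same chromosome, *Aldh1a7*, whose signal is given below beside that of *Aldh1a1*. The 250 bases before a start site of each are shown because they share a long stretch, in the RefSeq sequence of GRCm38.p6, at chr19:20601718-20601967 on the plus strand for *Aldh1a1* and chr19:20727557-20727806 on the minus strand for *Aldh1a7*. Each reads 5′ to 3′ and ends at the base before the start, and capitals mark the longest run that is identical in both at the same distance from the start.
Aldh1a1: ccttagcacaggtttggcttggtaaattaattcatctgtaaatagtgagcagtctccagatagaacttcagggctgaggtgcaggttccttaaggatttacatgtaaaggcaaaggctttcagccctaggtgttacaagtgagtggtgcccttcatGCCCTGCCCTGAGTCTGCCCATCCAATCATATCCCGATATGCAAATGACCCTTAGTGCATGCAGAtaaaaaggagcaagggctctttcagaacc
Aldh1a7: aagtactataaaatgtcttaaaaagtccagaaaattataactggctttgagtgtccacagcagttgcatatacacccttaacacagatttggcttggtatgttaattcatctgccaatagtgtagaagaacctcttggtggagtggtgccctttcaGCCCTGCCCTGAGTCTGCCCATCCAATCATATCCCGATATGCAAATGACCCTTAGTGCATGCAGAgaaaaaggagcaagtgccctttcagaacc
The shared run was 65 bases long, from 94 to 30 bases before the start. Of the last 100 bases, 94 were identical in the pair, against 35 of the 150 bases before them, when the sequences were set side by side without gaps. The run holds a CCAAT box 72 bases before the start, a match of 5 letters that 33.8% of all 32851 promoter windows hold on either strand. The other annotated *Aldh1a1* start, further upstream on the chromosome, had none of the motifs searched.

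Windows were found for 6 of the 9 genes, and they were searched on both strands for the E-box CACGTG, which CLOCK and BMAL1 bind, for its variant CACGTT, and for the D-box forms TTATGTAA and TTACGTAA, which DBP binds. None of the windows of the 6 genes held any of these, which says only that these letters are not in these windows. Across all windows the shares were 6.02% for CACGTG, 3.85% for CACGTT, 0.819% for TTATGTAA and 0.113% for TTACGTAA. The nuclear receptor site AGGTCA, present in 14% of all windows, was matched in the *Dhrs9* window alone, on the reverse strand 88 bases before the start, and AGTTCA, present in 11.8%, in none. CCAAT was matched in windows of *Aldh1a2*, 36 bases before the start, of *Rbp4* and of *Dhrs3*. TATAAA, held by 12.4% of all windows, was matched 28 bases before one *Rbp4* start and in the *Dhrs9* window, and the *Crabp1* window held no motif. *Aldh1a3*, *Crabp2* and *Rdh10* had no entry in the table of windows.

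The arrays were used as the authors had scaled them, to 1 trimmed mean. Array medians ran from 106.0 to 118.1, and the pairwise correlations between arrays over tested probe sets from 0.973 to 0.987. Markers of the skin's main cells were bright on every array: the summed intensity of 5 basal keratinocyte genes ran from 35615 to 36752 in the mutants and from 33434 to 36797 in WT, and that of 6 dermal fibroblast genes from 103970 to 107752 and from 104336 to 114120. *Clock* mutant replicate 1 stood apart in the 9 hair shaft and root sheath genes, which summed to 7597 there, 1928 in *Clock* mutant replicate 2, and 1985, 1086 and 1209 in WT. Their median difference was 1.54 and the highest 3.02, with median deviations from the WT mean of 2.08 and 0.76 in the mutants. None of the 9 passed (limma, adjusted). At an unadjusted p under 0.05 (limma), 5 of the 9 were higher in the mutants and 0 lower, where 5.24% of all genes were higher. The part of that difference in the values below was not tested. None of the 4 *Clock* probe sets passed the threshold (limma, adjusted), and a point mutation need not change the level of its own transcript. In whole skin, fewer cells of a type and less RNA per cell cannot be told apart.

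*Aldh1a1* was lower in both *Clock* mutants than in every WT mouse. ALDH1A1 is the member of the family first known as retinal dehydrogenase 1, and it also oxidises other aldehydes. Its probe set (Entrez Gene 11668) read 2353 and 2125 in the mutants and 3283, 3917 and 3925 in WT. Both mutants lay well under the lowest WT mouse, so the groups did not overlap, and the spread within each group was narrow: the highest WT value was 1.20 times the lowest, and the mutants differed 1.11-fold. The mean was 2239 ± 161 (SD, n = 2) in the mutants and 3708 ± 369 (SD, n = 3) in WT. On the log2 scale the mutants were lower by a difference of -0.72 with a standard error of 0.10 from the array-wide limma fit, a level 0.605 times that of WT. Over the 6 mutant and WT pairs of mice the ratio ran from 0.541 to 0.717. Among females alone the difference was -0.80, and with the male as the one mutant it was -0.65. Only 1.64% of all tested probe sets had a lower difference, which describes how the gene came to be picked. Of the marker lists, the 5 dermal papilla genes tested of 7 listed had a median difference of -0.24 and summed to 970 and 944 in the mutants and 971, 1109 and 1085 in WT, with the defining gene *Corin* too dim to enter. The 6 sebaceous gland genes tested of 8 listed had a median difference of -0.09, with median deviations from the WT mean of -0.25 in the male mutant and 0.08 in the female, and summed to 41378 and 45057 in the mutants and 45365, 44765 and 45832 in WT. No gene of either list passed (limma, adjusted), and their part in the *Aldh1a1* value was not tested.

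**Figure D1:**
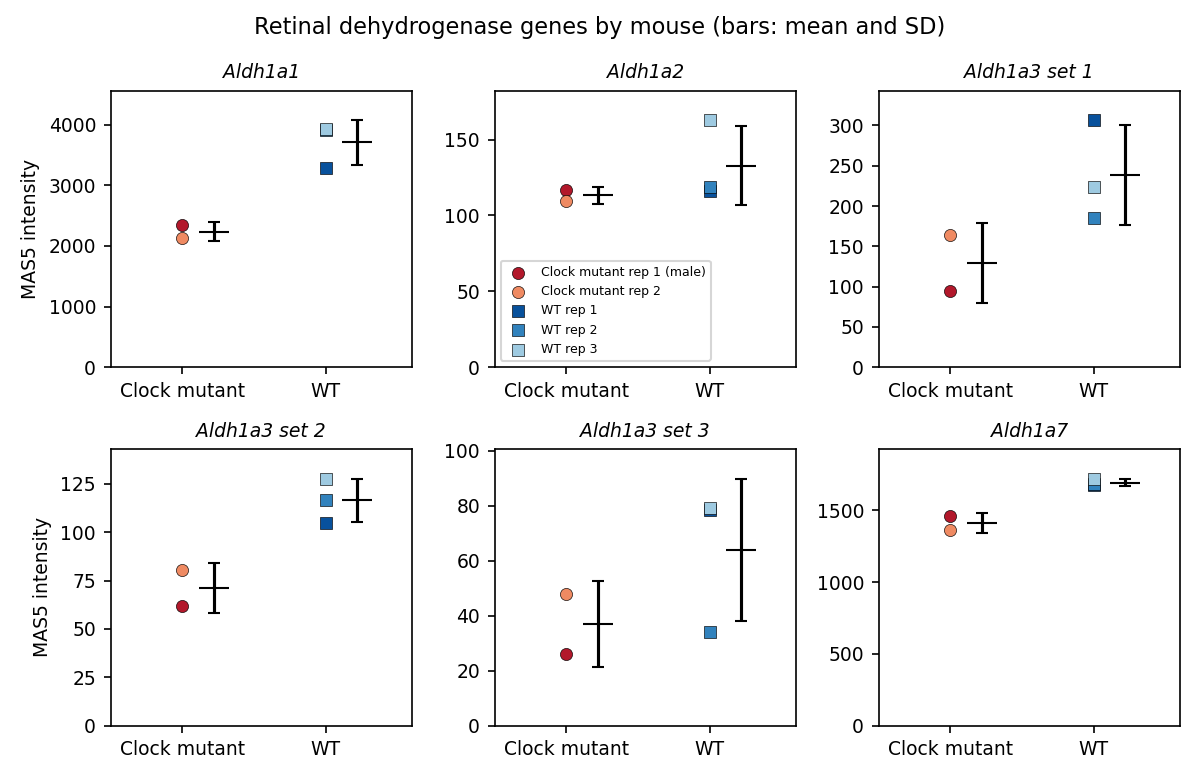
Intensity (MAS5 units, linear axis from 0) of the retinal dehydrogenase probe sets and of *Aldh1a7* in each of the 5 mice; circles are *Clock* mutants, squares are WT, and the bars are the group mean and SD (n = 2 and n = 3). *Aldh1a1* read 2125 to 2353 in the mutants and 3283 to 3925 in WT, and sets 1 and 2 of *Aldh1a3* also kept the groups apart, while *Aldh1a2* and the dim set 3 of *Aldh1a3* overlapped.

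*Aldh1a7*, the close copy of *Aldh1a1*, read 1464 and 1362 in the mutants and 1678, 1681 and 1721 in WT. The 3 WT mice lay close together and both mutants were below them. This gene is no member and was tested: its difference was -0.26 with a standard error of 0.09 and did not pass (limma, adjusted p = 0.368). Whether transcripts of one gene bind the probes of the other was not tested, since probe sequences were not used here.

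*Aldh1a3* was also lower in both mutants on its 2 brighter probe sets, but the size differed between the mutants. ALDH1A3, like ALDH1A1, makes retinoic acid, and in skin it is known from keratinocytes and hair follicles. Set 1 (Entrez Gene 56847) read 94.6 and 164 in the mutants and 307, 185 and 223 in WT. The groups did not overlap, though *Clock* mutant replicate 2 lay just under the lowest WT mouse, at 0.888 times its value. The means were 129 ± 49.2 (SD, n = 2) and 238 ± 62.2 (SD, n = 3), and the difference was -0.90 with a standard error of 0.28. It was -0.51 among females alone and -1.30 without *Clock* mutant replicate 2. Set 2 read 61.9 and 80.3 in the mutants and 105, 117 and 128 in WT. Again both mutants were below every WT mouse, with ratios over the pairs from 0.485 to 0.765. The difference was -0.72 with a standard error of 0.24, and -0.53 among females alone. Set 3 was too dim to enter the comparison, with 26.0 and 48.1 in the mutants and 78.6, 33.9 and 79.2 in WT. There the second WT mouse fell between the mutants, so the groups overlapped. Over the 3 probe sets *Clock* mutant replicate 1, the male, was the lowest array each time.

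*Aldh1a2*, which encodes the enzyme that makes most of the embryo's retinoic acid, gave a different picture from its relatives. Its probe set (Entrez Gene 19378) read 117 and 109 in the mutants and 116, 119 and 163 in WT. The higher mutant lay between the lower pair of WT mice, and WT replicate 3 alone was well above all the others. The means were 113 ± 5.36 (SD, n = 2) and 133 ± 26.1 (SD, n = 3). The difference of -0.21 was smaller than its standard error of 0.23, and without WT replicate 3 it was -0.06. Of the 3 retinal dehydrogenase genes, *Aldh1a1* thus had the narrowest spread beside its difference, *Aldh1a3* the lowest difference on its brightest set, and *Aldh1a2* groups that overlapped on its 1 probe set.

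The enzymes that form and remove retinal had smaller differences. *Rdh10*, the main retinol dehydrogenase of the embryo, had a pair of probe sets. Set 1 (Entrez Gene 98711) read 610 and 649 in the mutants and 679, 726 and 710 in WT. Both mutants were below every WT mouse, but by a small margin, with ratios from 0.840 to 0.956. The difference was -0.16 with a standard error of 0.11, and centring the arrays on their medians brought it to -0.08. Set 2 read 296 and 375 in the mutants and 396, 362 and 300.1 in WT. These values overlapped, the difference was -0.07 with a standard error of 0.17, and its sign turned to 0.10 among females alone and to 0.02 without WT replicate 1. *Dhrs3*, which reduces retinal back to retinol and is known as a gene that retinoic acid induces (Entrez Gene 20148), read 1037 and 897 in the mutants and 913, 999 and 861 in WT. One mutant was above every WT mouse and the other between them, and the difference was 0.06 with a standard error of 0.11. Among females alone it was -0.04, with the male as the one mutant 0.17, and without WT replicate 3 0.01.

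The groups overlapped for both cytoplasmic binding proteins. *Crabp2* (Entrez Gene 12904) read 1951 and 2002 in the mutants and 2322, 2003 and 1921 in WT. One WT mouse was high and the other 4 mice lay within a narrow band that held both genotypes. The means were 1976 ± 36.0 (SD, n = 2) and 2082 ± 212 (SD, n = 3), with a difference of -0.07 and a standard error of 0.10. That difference turned to 0.01 without WT replicate 1. *Crabp1* (Entrez Gene 12903), which holds retinoic acid in the cytoplasm and is known from the dermal papilla among other places, read 251 and 203 in the mutants and 325, 153 and 221 in WT. Here the WT mice themselves differed 2.13-fold and both mutants fell inside their range. The difference was 0.02 with a standard error of 0.29, and it ran from -0.25 without WT replicate 2 to 0.30 without WT replicate 1, with -0.13 among females alone.

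**Figure D2:**
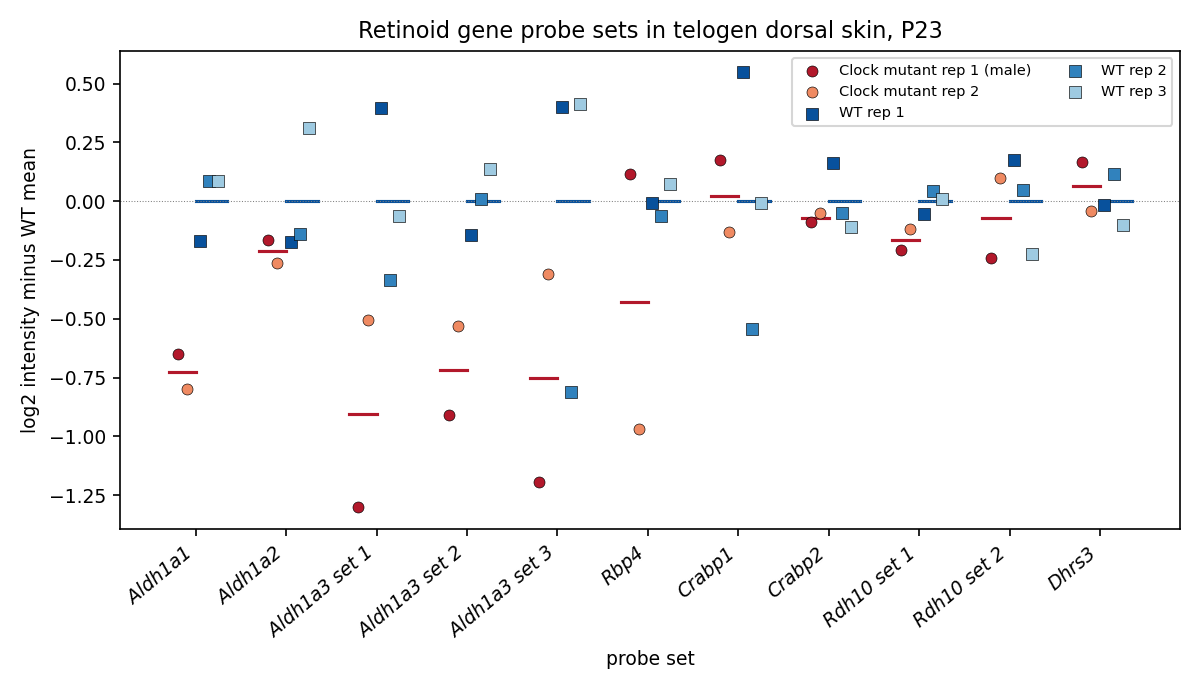
Log2 intensity minus the WT mean (vertical axis) for the 11 probe sets of the retinoid genes (horizontal axis), 1 point per mouse, with circles for *Clock* mutants, squares for WT and a short line at each group mean. Both mutants sit below every WT mouse for *Aldh1a1*, sets 1 and 2 of *Aldh1a3* and set 1 of *Rdh10*, and for *Rbp4* one mutant is at 0.12 and the other at -0.97; set 3 of *Aldh1a3* was too dim to enter the comparison.

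*Rbp4* was low in 1 mouse alone. RBP4 carries retinol in plasma, and besides the liver it is made by adipocytes, which form a layer under the dermis. Its probe set (Entrez Gene 19662) read 1774 and 835 in the mutants and 1627, 1567 and 1721 in WT. *Clock* mutant replicate 1 was the highest of all 5 mice and *Clock* mutant replicate 2 the lowest, so the mutants differed 2.12-fold where WT mice differed 1.10-fold. The means were 1305 ± 664 (SD, n = 2) and 1638 ± 77.4 (SD, n = 3), and the difference of -0.43 had a standard error of 0.25. It was -0.97 among females alone and turned to 0.12 without *Clock* mutant replicate 2, so the value rests on that mouse.

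Adipocyte markers were set beside *Rbp4* for this reason. Of 7 listed, 5 were tested and none passed (limma, adjusted). Their summed intensity was 24345 in *Clock* mutant replicate 1 and 19745 in replicate 2, against 22223, 22530 and 25300 in WT. *Clock* mutant replicate 2 thus had the lowest sum, with a median deviation from the WT mean of -0.28 over the 5 genes, compared with -0.97 for *Rbp4*. Other marker lists also split the mutants. Melanocyte markers had median deviations of 0.13 in replicate 1 and -0.51 in replicate 2, and sebaceous gland markers went the other way, at -0.25 and 0.08. *Adipoq*, the adipocyte hormone adiponectin, read 13608 and 11275 in the mutants and 12412, 12273 and 13656 in WT. *Retn*, which encodes resistin, read 6731 and 4988 in the mutants and 5946, 5588 and 6667 in WT. Both of these were lowest in *Clock* mutant replicate 2, as *Rbp4* was, by less. *Pparg*, the receptor that drives adipocyte formation, read 807 and 682 in the mutants and 570, 714 and 754 in WT, with the lowest value in WT. *Cidec*, which encodes a lipid droplet protein, was lower in both mutants, at 3056 and 2745 against 3249, 3825 and 4130 in WT, and did not pass (limma, adjusted p = 0.339). *Lep*, the gene of leptin, was the dimmest of the 5, from 45.4 to 142, and the part of adipocyte content in the *Rbp4* value was not tested.

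**Figure D3:**
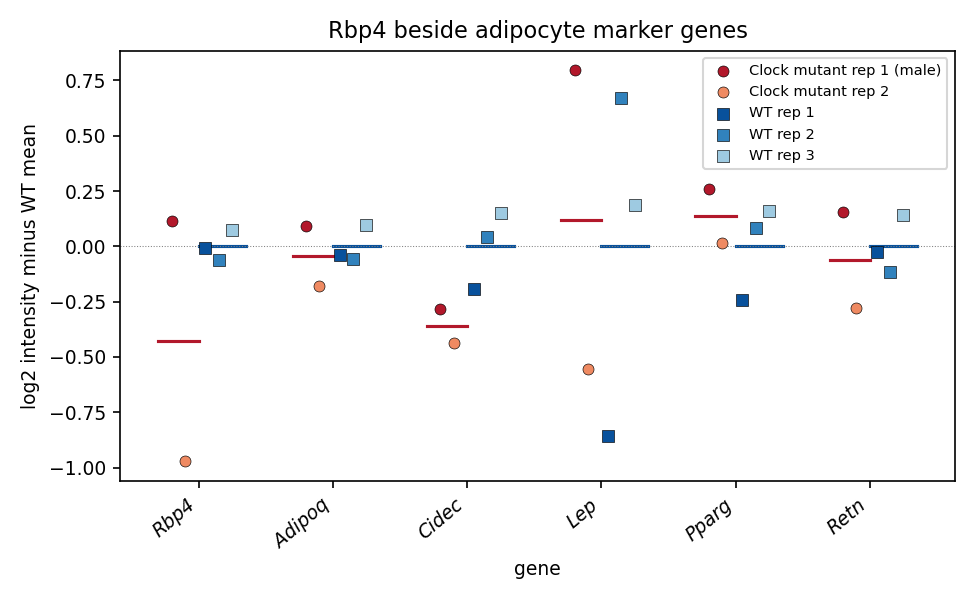
Log2 intensity minus the WT mean (vertical axis) for *Rbp4* and 5 adipocyte genes (horizontal axis), 1 point per mouse, with circles for *Clock* mutants, squares for WT and a short line at each group mean. *Clock* mutant replicate 2 is at -0.97 for *Rbp4* and at -0.18 for *Adipoq* and -0.28 for *Retn*.

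Across the retinoid genes, 4 of the 10 tested probe sets had groups that did not overlap, all with the mutants lower: *Aldh1a1*, both tested sets of *Aldh1a3* and set 1 of *Rdh10*. Over the whole array 15.1% of the 27022 tested probe sets had both mutants below every WT mouse, and 27.9% had groups that did not overlap in either direction. Nothing is read from that share, since the genes were selected on these arrays. With the brightest tested probe set for each gene, 6 of the 8 genes had a negative difference and 2 a positive one. The median was -0.19, beside 0.02 over all 12955 genes tested, of which 6011 were negative and 6944 positive. *Clock* mutant replicate 1 was below every WT mouse in 3 of the 8 genes and *Clock* mutant replicate 2 in 5. The median deviation over the 8 genes was -0.13 and -0.20 in the mutants, and -0.01, -0.06 and 0.00 in WT. The lowest differences belonged to *Aldh1a1*, *Aldh1a3* and, in 1 mouse, *Rbp4*.

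The profile of *Aldh1a1* over the 5 mice was compared with that of 12954 other genes, by the root mean square distance between their log2 deviations from the WT mean. The closest were *C5ar1* at 0.050, *Fam107a* at 0.059, *Cul9* at 0.078, *Slc25a33* at 0.081 and *D3Ertd751e* at 0.081, where the median over all genes was 0.49. *C5ar1*, a receptor for complement C5a on myeloid cells, read 60.1 and 55.7 in the mutants and 85.5, 99.2 and 94.0 in WT. *Fam107a* read 721 and 725 in the mutants and 1031, 1320 and 1275 in WT. Both of these had the lowest WT value in replicate 1, as *Aldh1a1* had, which follows from picking them by likeness to it. *C5ar1* was dim, with mutant values near the filter cut of 56.7. The other retinoid genes were farther: *Aldh1a2* was at 0.35, *Rbp4* at 0.37, *Rdh10* at 0.37, *Aldh1a3* at 0.45, *Crabp2* at 0.46, *Dhrs3* at 0.51 and *Crabp1* at 0.64. The distances rest on 5 arrays that share 1 scaling.

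The other genes of the retinoid pathway were taken from lists written from knowledge of the pathway, and these were tested. Of 62 genes listed, 57 had a probe set of their own and 50 were bright enough, and none of the 50 passed (limma, adjusted, where 15 genes or 0.116% of 12955 passed array-wide). At an unadjusted p under 0.05, 4 of the 50 were lower in the mutants and 1 was higher, where 4.78% of all genes were lower and 5.24% higher. Centring on array medians changed that split to 2 lower and 6 higher. Leaving out *Clock* mutant replicate 2 gave 9 lower and 1 higher, leaving out *Clock* mutant replicate 1 gave 2 and 1, and leaving out WT replicate 1 gave 2 and 3. The median difference over the 50 was -0.05, with 31 negative and 19 positive, where 6011 of all 12955 genes were negative and 6944 positive. No test was run on this split or on those of the single lists below.

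Among the enzymes that interconvert retinol and retinal, *Adh1* and *Rdh11* had the smallest unadjusted p of 14 tested. *Adh1*, an alcohol dehydrogenase that oxidises retinol, read 3507 and 3676 in the mutants and 4535, 4872 and 4956 in WT. Both mutants were below every WT mouse, with a difference of -0.41 and a standard error of 0.08, but it did not pass (limma, adjusted p = 0.138). *Rdh11*, a retinal reductase, read 1452 and 2149 in the mutants and 2323, 2098 and 2435 in WT. It was low in the male mutant alone, with a difference of -0.37 (limma, adjusted p = 0.440) and of -0.09 among females alone. Without *Clock* mutant replicate 2 it was -0.65 and crossed the threshold (limma, adjusted p = 0.0497, where the alternatives reached 0.943).

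The 1 clearance enzyme tested was *Cyp26b1*, which degrades retinoic acid. It read 1708 and 1959 in the mutants and 2825, 1993 and 2307 in WT. Both mutants were lower, one of them only just, and the difference of -0.36 did not pass (limma, adjusted p = 0.416). Without WT replicate 1 it was -0.23. *Cyp26a1*, a gene that retinoic acid induces strongly, was too dim to enter.

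Of the receptors, 5 of 6 were tested, and 4 of the 5 had a positive difference. *Rarg*, the main retinoic acid receptor of the epidermis, was the exception. Its brightest probe set read 774 and 827 in the mutants and 1014, 1040 and 1230 in WT. Both mutants were below every WT mouse, and the difference of -0.45 with a standard error of 0.12 did not pass (limma, adjusted p = 0.273). A second *Rarg* probe set ran the same way, with 85.5 and 139 in the mutants and 257, 223 and 175 in WT. *Rxrg*, a partner receptor known from muscle and brain, read 341 and 296 in the mutants and 244, 241 and 253 in WT. It was higher in both mutants, with a difference of 0.37 that did not pass (limma, adjusted p = 0.426). *Rara* was left out as too dim.

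Of the 9 tested genes of uptake, storage and cellular binding, 8 had a negative difference and 1 a positive one, with a median of -0.19. The pair with the smallest unadjusted p were *Dgat1*, which can esterify retinol, at -0.19 (limma, adjusted p = 0.477) and -0.11 among females alone, and *Bco2*, a carotenoid-cleaving enzyme, at -0.53 (limma, adjusted p = 0.513). *Ppard* and *Fabp5*, the receptor and the carrier of an alternative route for retinoic acid, were at -0.22 (limma, adjusted p = 0.541) and -0.05 (limma, adjusted p = 0.793), and *Fabp5* was at 0.01 among females alone. Of the 8 receptor co-regulators tested, *Kat2b* at 0.17 (limma, adjusted p = 0.534) and *Ncoa3* at -0.19 (limma, adjusted p = 0.631) had the smallest unadjusted p. *Ncoa3* was at -0.05 among females alone, and *Kat2b* at 0.10 without WT replicate 1. The other tested probe sets of *Kat2b* were at 0.14 and -0.10. The 11 tested genes listed as responsive to retinoic acid divided into 6 positive and 5 negative differences, with a median of 0.01. Those with the smallest unadjusted p were *Rai14* at 0.17 (limma, adjusted p = 0.507) and *Meis2* at -0.34 (limma, adjusted p = 0.556). The other tested probe sets of *Rai14* went the other way, at -0.46, -0.07 and -0.02. On the first of these both mutants were below every WT mouse. *Meis2* was at -0.05 among females alone and at -0.64 without *Clock* mutant replicate 2. Its other tested probe sets were at -0.27 and 0.03.

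**Figure D4:**
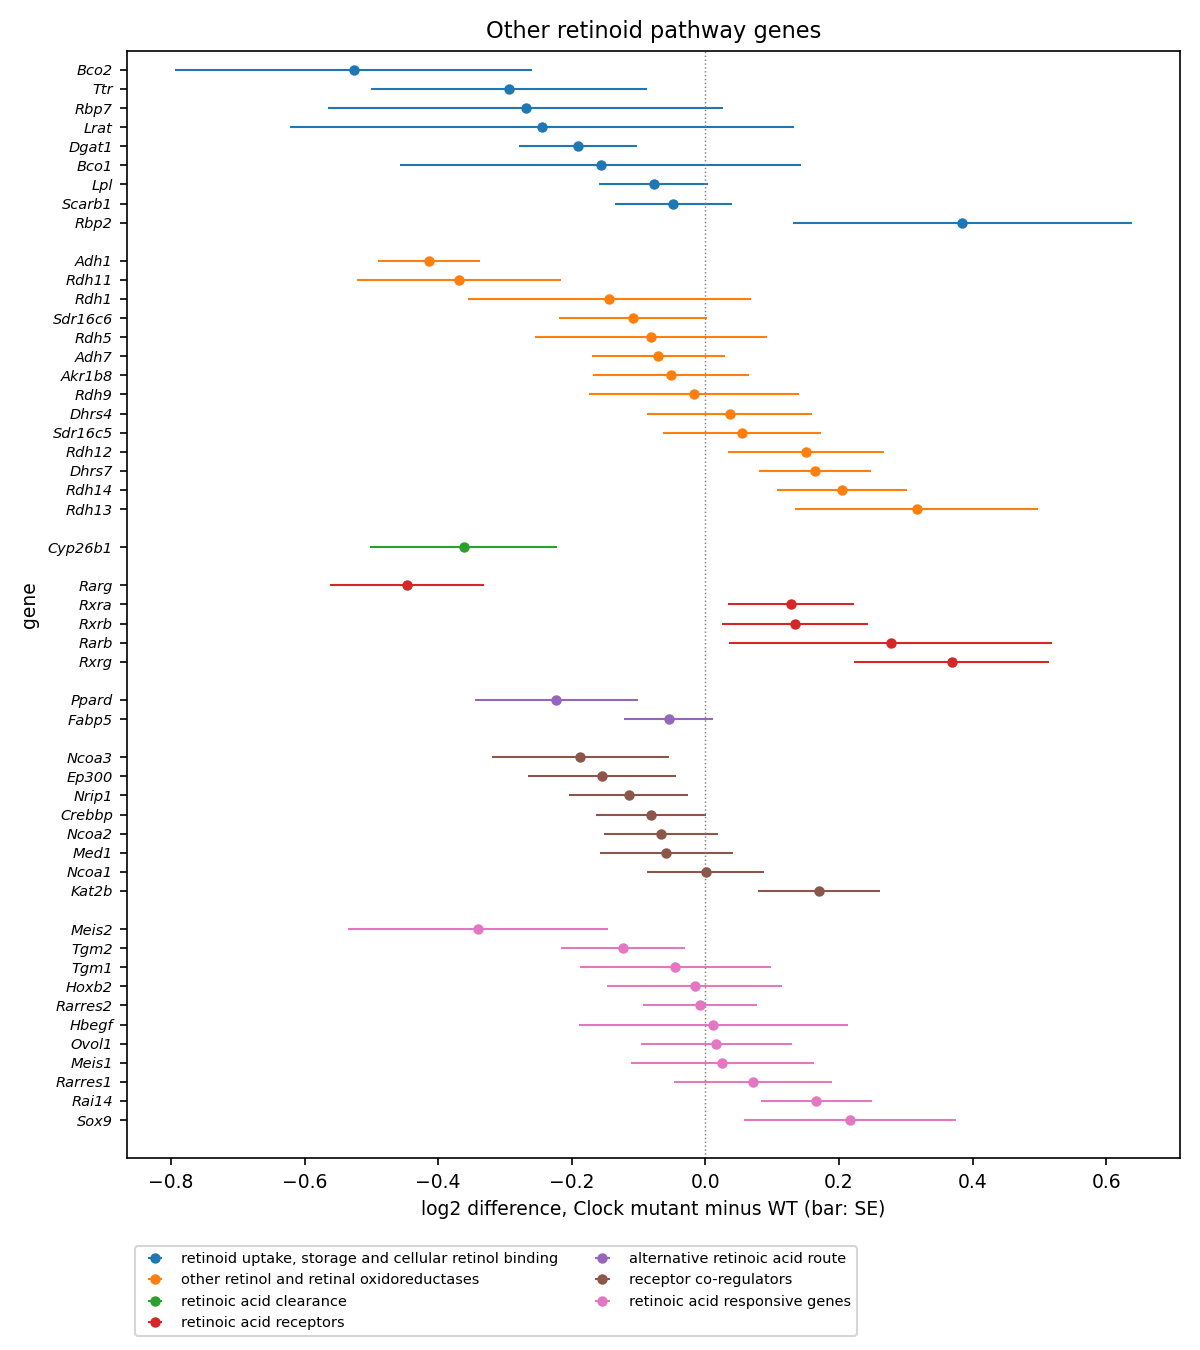
Log2 difference between *Clock* mutant and WT (horizontal axis, mutant minus WT, bar: standard error of the limma fit) for 50 other retinoid pathway genes (vertical axis), coloured by list. None passed the adjusted threshold, and the differences ran from -0.53 for *Bco2* to 0.38 for *Rbp2*.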

How the data were processed

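Total RNA from dorsal skin of 2 *Clock* mutant and 3 WT mice (11 µg) was labelled and hybridised to Affymetrix MOE430 arrays, 1 per mouse. The deposited values are MAS5 signal intensities on a linear scale, which the authors had scaled so that the trimmed mean of each array was alike. The MAS5 version is not given in the sources used here. Intensities under 1 were set to 1 (2441 values) and log2 transformed. Left out were 64 control probe sets and 18015 dim ones, below the 40th percentile of the mean over arrays (56.7 on the linear scale). The 27022 remaining probe sets were fitted with limma 3.58.1 in R 4.3.3 (lmFit, eBayes with an intensity trend, two-sided, Benjamini-Hochberg, threshold 0.05), with genotype as the only term, and the fit was tested on simulated data. The brightest tested probe set with 1 gene symbol stood for a gene. Arrays carry no read depth, and the number of mice limits the precision.

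Genes named were all members, *Aldh1a7*, pathway genes past the threshold, the 2 with the smallest unadjusted p of each list of 5 or more tested genes and all genes of shorter lists, and the 5 genes closest in profile to *Aldh1a1*. The members and lists were chosen with earlier results of these data known. Promoter sequences and names of genes came from RefSeq tables and the array annotation. Alternatives tried were the omission of each mouse, the replicate number as a block, quantile normalization or centring on array medians, a filter at the 60th percentile or none, 32 added before log2, averaged probe sets per gene, and eBayes with a robust prior or without a trend.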

Additional observations from a re-analysis of the deposited data

How the results depend on the processing

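Over the 14 alternatives the *Aldh1a1* difference ran from -0.81 without WT replicate 1 to -0.64 with median centring. The filters, the eBayes settings and the averaging of probe sets cannot alter it and left it at -0.72. The replicate block gave the same value as leaving out WT replicate 3, -0.68. Its groups do not overlap, so leaving out 1 mouse could not turn its sign. The median over the 8 retinoid genes, -0.19, was -0.14 with quantile normalization, -0.10 with median centring, -0.12 with the 60th percentile filter and -0.14 with a replicate block, and ran from -0.27 to -0.13 when 1 mouse at a time was left out. The count of 4 retinoid probe sets whose groups did not overlap was 2 with the 60th percentile filter, which left out *Aldh1a3*. It ran from 4 to 7 when 1 mouse was left out, with 7 without *Clock* mutant replicate 2. Groups of fewer mice overlap less easily. The share over all probe sets was not taken with a mouse left out, so nothing is read from these counts. The count of 0 pathway genes past the threshold became 1, *Rdh11*, without *Clock* mutant replicate 2, and was 0 without each of the other mice. Array-wide, 24 probe sets passed in limma. That count was 10 with no filter, 0 with eBayes without a trend (2631 at an unadjusted p under 0.05) and 106 with the replicate block. It ran from 0 to 239 when 1 mouse was left out: 0 without WT replicate 2 (1570 unadjusted), 0 without WT replicate 3 (2193 unadjusted) and 239 without *Clock* mutant replicate 2. The deviations of same-numbered mice correlated at 0.0078 and 0.099. With 2 mutants, such values cannot tell whether same-numbered mice shared a litter or a day of processing. *Rai14* had a negative difference, -0.10, as the mean of its probe sets, and *Fabp5* a positive one, 0.03, with median centring and, 0.01, without *Clock* mutant replicate 1. *Crabp2* turned to 0.02 with median centring. Averaging probe sets gives no count over probe sets. With 2 mutants, 1 of them male, and 3 WT mice, differences of the size of the standard errors given could not be told from the spread.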
